A study of Mus musculus with 24 samples.

Results

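C2C12 and NSC34 are mouse cell lines used as models of the muscle and the nerve side of the neuromuscular junction, and the data compared here are the baseline transcriptomes of the lines without co-culture. The members are the 12 control libraries of the study, 6 of C2C12 and 6 of NSC34, out of 24 libraries, and they were chosen by their labels (cell line and no co-culture). The other 12 libraries came from the same lines after 3 days of co-culture. All libraries are labelled wild type, and the groups compared share the lack of co-culture and differ in the line. That label does not make the lines genetically alike, so any difference in genetic background goes with the line. The labels give no passage number. Each line is a single established line, so 6 libraries of a line are not 6 animals, and nothing in the labels says that they came from separate cultures; p-values then measure the spread between these libraries, which may be technical.

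C2C12 is a myoblast line: its cells divide as single cells and, when they leave the cell cycle, fuse into multinucleate myotubes and switch on the sarcomere genes under MyoD, myogenin and MEF2 factors. NSC34 was made by fusing neuroblastoma cells with embryonic mouse spinal cord cells, and it is used as a motor-neuron-like line. At the junction, the nerve releases agrin, LRP4 and MuSK on the muscle receive it, and the muscle acetylcholine receptor is clustered under the nerve ending.

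RNA was read as long Nanopore reads, and each transcript's reads were summed per gene. The depth differed strongly between the lines. The C2C12 libraries held 121154 to 658075 reads (1497275 in all), whereas the NSC34 libraries held 88, 4076, 4009, 2239, 4624 and 822 reads (15858 in all). A gene with 0 NSC34 reads may therefore still be present at up to 189 CPM (reads scaled to a common library total), the level of 3 reads in the pooled NSC34 libraries, whereas the same limit in C2C12 is 2.0 CPM. In single NSC34 libraries the same limit was 649 to 34091 CPM, so a lack of overlap between libraries rests partly on depth. These limits and all intervals below cover counting error only. Reads fell on 13903 genes in C2C12 and on 3863 in NSC34. At an equal depth of 2000 reads, the expected number of genes was 998 ± 19.0 (SD, n = 6) in C2C12 and 1013 ± 19.5 (SD, n = 4) in the NSC34 libraries that reach that depth, so the lines differed in genes detected by less than the SD of either line. The median annotated length of the transcripts counted was 1104 to 1169 bases in the C2C12 libraries and 1141 to 1495 bases in the NSC34 libraries. The lines were deposited in separate tables, so line, depth and any handling that went with a table cannot be told apart.

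The comparison across genes asked which genes took a different share of reads in the lines. edgeR's quasi-likelihood test with library totals as the scale covered the 604 genes whose pooled CPM, averaged over the lines, was at least 250. At a Benjamini-Hochberg adjusted p under 0.05, 215 genes (35.6% of those tested) passed, with 121 higher in C2C12 (20% of those tested) and 94 higher in NSC34 (15.6%). Of the calls, 43.7% were thus higher in NSC34. That share was 23.7% with TMMwsp factors, 30.8% with DESeq2 and 63.4% with limma-voom, and the median log2 fold change (NSC34 minus C2C12) of all tested genes was -0.04 with library totals, -0.50 with TMMwsp, -0.40 with DESeq2 and 0.22 with limma-voom. Small differences in share therefore have no fixed sign across scalings, and directions below are given for genes whose difference is larger than these shifts unless stated. A gene read in 1 line could pass the minimum through that line alone. Among the genes called higher in C2C12, 72 of 121 had under 250 pooled CPM in NSC34, and among those called higher in NSC34, 50 of 94 had under 250 pooled CPM in C2C12, so counts and medians of tested members in the lists below are descriptions and carry no support of their own.

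**Figure D1:**
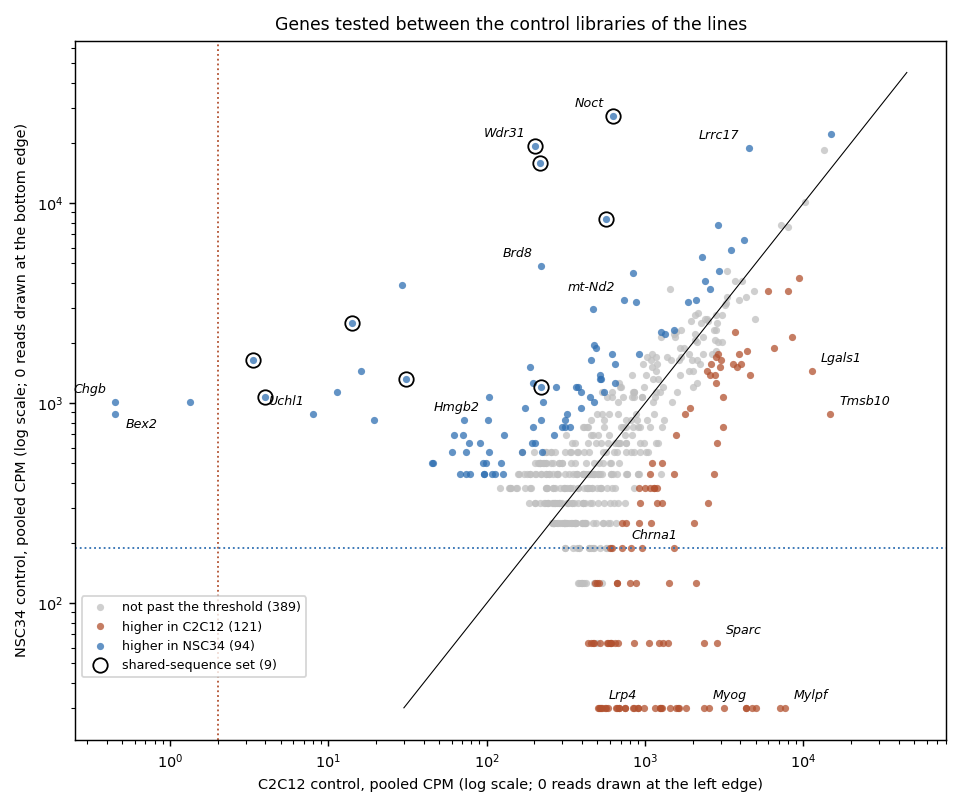
Pooled CPM of the 604 tested genes in C2C12 (horizontal, log scale) and NSC34 (vertical, log scale), coloured by the edgeR call. The solid line marks equal shares, dotted lines mark the level of 3 reads (2.0 CPM in C2C12, 189 CPM in NSC34), and genes with 0 reads sit at the edges. Muscle genes lie along the bottom edge. The 9 ringed genes, picked as Noct, the gene with the most NSC34 reads, and those sharing sequence with it, lie far above the line of equal shares.

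Muscle genes set the lines apart. The list of contractile and sarcomere genes (45 genes) took 4.99% of C2C12 reads, with 4.53% to 5.32% in the 6 libraries. In NSC34 it took 0.0252%, which is 4 reads in all (exact 95% binomial interval 0.00687% to 0.0646%). Reads were present on 44 members in C2C12 and on 4 in NSC34, against 13903 and 3863 of all genes. Of the 20 members tested, 19 were higher in C2C12, none was higher in NSC34, and 1 (Myh3) did not pass. Most of them entered the test through their C2C12 share alone.

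Mylpf, the fast skeletal regulatory light chain (chr7:127208890-127214298 in GRCm38), had 6936 CPM in the lowest, 7288 in the median and 8105 in the highest C2C12 library. It had no read in any NSC34 library, and its pooled share was at least 40.4-fold higher in C2C12 (edgeR adjusted p = 1.13e-10). Myl1, the fast skeletal essential light chain, ranged over 4406, 4649 and 5443 CPM (lowest, median, highest) in C2C12 with 0 NSC34 reads, at least 26.4-fold higher. Myl4, the light chain of atrial and embryonic muscle, ranged over 4234, 4594 and 5170 CPM with 0 NSC34 reads, at least 25.2-fold higher. The C2C12 libraries lay close together for each of these light chains, and the lines did not overlap.

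The troponins, which make the thin filament sensitive to calcium, behaved in the same way. Tnnc1, the slow and cardiac troponin C, ranged over 6507, 6809 and 7645 CPM in C2C12 and had 0 NSC34 reads (at least 37.8-fold higher). Tnnc2, the fast troponin C, ranged over 4020, 4285 and 4575 CPM with 0 NSC34 reads (at least 23.0-fold), and Tnni1, the slow inhibitory subunit, over 2121, 2552 and 2883 CPM with 0 NSC34 reads (at least 13.4-fold). Slow and fast isoforms were thus both read in every C2C12 library. Tnnt1, the slow troponin T, had 546, 590 and 620 CPM in C2C12 and 1 NSC34 read, a NSC34 to C2C12 ratio of 0.108 (exact 95% counting interval 0.00272 to 0.601). Tpm1, a tropomyosin also made outside muscle, had 1919, 2146 and 2655 CPM in C2C12 and 1 NSC34 read (ratio 0.0267, interval 0.000677 to 0.149). Myh3, the embryonic myosin heavy chain, had 190, 441 and 666 CPM in C2C12 and 1 NSC34 read, and its edgeR adjusted p of 0.085 missed the threshold (0.0203 without C2C12 library 4, 0.0121 with the replicate block).

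The promoters of Myog and Acta1 are shown because these genes are the muscle markers of the comparison and were both read in all C2C12 libraries and in no NSC34 library. Each is the 250 bases before the RefSeq start site in GRCm38.p6, 5′ to 3′ on the gene's strand. For Myog (chr1:134289754-134290003, plus strand) capitals mark the E-box motif CANNTG, the core bound by MyoD-family factors, and for Acta1 (chr8:123894776-123895025, minus strand) they mark the CArG box, the motif of serum response factor.
Myog: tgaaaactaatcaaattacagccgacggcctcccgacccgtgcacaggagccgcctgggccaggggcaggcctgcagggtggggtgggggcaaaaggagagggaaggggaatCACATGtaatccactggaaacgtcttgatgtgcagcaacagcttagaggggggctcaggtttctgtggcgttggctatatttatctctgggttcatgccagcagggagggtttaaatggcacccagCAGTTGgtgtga
Acta1: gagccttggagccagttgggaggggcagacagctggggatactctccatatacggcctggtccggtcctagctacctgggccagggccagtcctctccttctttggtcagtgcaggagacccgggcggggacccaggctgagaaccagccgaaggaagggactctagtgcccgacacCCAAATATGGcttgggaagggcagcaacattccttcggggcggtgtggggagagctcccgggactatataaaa
The 2 E-box matches of Myog start 138 and 12 bases before the start site. The CArG match of Acta1 starts 73 bases before it, and Acta1 also has 2 E-box matches, 238 and 221 bases before the start site, which are not capitalised and do not overlap the CArG box. Both patterns read the same on either strand. Over 32851 promoters of the same length, 66.2% held an E-box and 1.47% a CArG box, so an E-box in this window is common.

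Myog encodes myogenin, the factor of terminal myoblast differentiation. It had 1803, 2356 and 2747 CPM in the lowest, median and highest C2C12 library and 0 reads in all NSC34 libraries. Its mean was 2346 ± 354 CPM (SD, n = 6) in C2C12, and an exact two-sided permutation test of mean CPM over the 924 splits of 6 against 6 gave p = 0.00216, the smallest p the design allows (adjusted over the 4 markers tested, 0.00289). Acta1, skeletal alpha-actin, had 2312, 2901 and 3566 CPM in C2C12 and 0 NSC34 reads, with the same exact p. The pooled shares were at least 12.5-fold (Myog) and 16.7-fold (Acta1) higher in C2C12, and no library of either line overlapped the other line for these genes. In NSC34 libraries 1 and 6, however, 0 reads allow up to 34091 and 3650 CPM, above the highest C2C12 library for both genes. The exact p counts these 2 libraries in full.

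**Figure D2:**
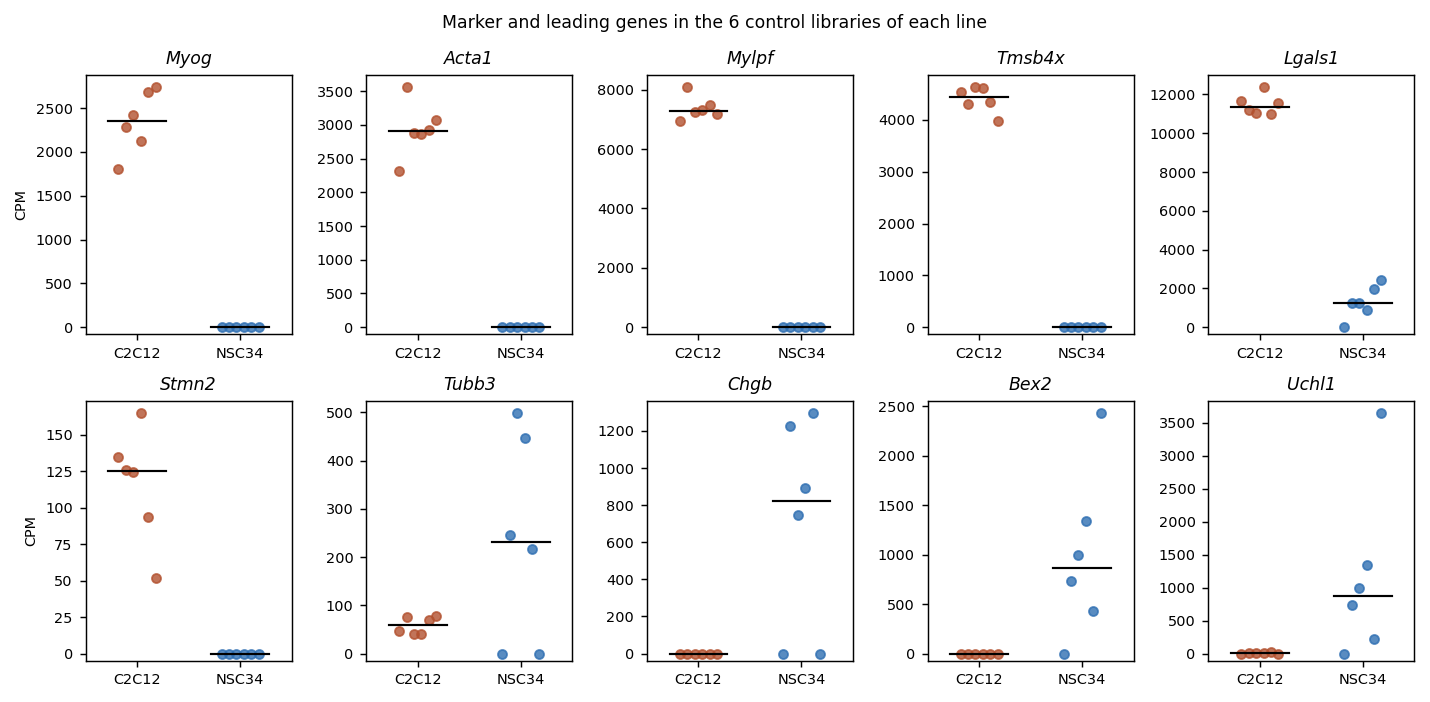
CPM of 10 genes in each control library (points) with the median of the line (bar), on linear axes that differ between panels. Myog, Acta1, Mylpf and Tmsb4x are at 0 in all 6 NSC34 libraries, Stmn2 is read in C2C12 and at 0 in NSC34, and Chgb and Bex2 are read in NSC34 and at 0 in C2C12. The NSC34 library of 88 reads is the leftmost NSC34 point and is at 0 in all panels.

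The regulators of the myogenic program took 0.436% of C2C12 reads and 0.0126% of NSC34 reads (2 reads; 0.00734% without NSC34 library 4). Besides Myog, the member tested was Mymk, which encodes the fusion protein myomaker. Mymk had 405, 525 and 631 CPM in C2C12 and 0 reads in NSC34, at least 2.98-fold higher (edgeR adjusted p = 0.00264). Myod1, the earlier determination factor, was named after its values were seen: it had 31 C2C12 reads, at 6.51, 15.2 and 28.1 CPM, and 0 NSC34 reads, which at this NSC34 depth shows no difference. The label calls C2C12 a myoblast, and the libraries carried sarcomere, fusion and myogenin transcripts that belong to differentiating cells. In bulk RNA, fewer cells of a type and less RNA per cell cannot be told apart.

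Cdkn1a, the cyclin-dependent kinase inhibitor p21, was the 1 tested member of the 11 genes listed for cell cycle exit. It had 775, 1256 and 1786 CPM in C2C12 and 0 NSC34 reads, at least 7.64-fold higher (edgeR adjusted p = 0.000699). The whole list took 0.173% of C2C12 reads, 2163 of its 2592 reads being of Cdkn1a, and 0.0126% of NSC34 reads, which is 2 reads of Ccnd3, all in library 5. Ccnd3, a G1 cyclin, had a NSC34 to C2C12 ratio of 1.21 (interval 0.145 to 4.45). The cell cycle list (38 genes) took 0.473% of C2C12 reads and 0.870% of NSC34 reads (exact 95% interval 0.732% to 1.03%). Of its 6 tested members, 3 were higher in NSC34 and none was higher in C2C12.

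The called members encode chromatin proteins. Hmgb2, a high-mobility-group protein, had 82.5, 104 and 119 CPM in C2C12 and 0, 656 and 3650 CPM in NSC34. It was higher in NSC34 by a log2 value of 3.01 ± 0.53 (SE), with an edgeR adjusted p of 7.77e-05. Hmgn2, a nucleosome-binding protein, had a log2 fold change of 1.38 ± 0.36 and H2afz, the histone variant H2A.Z, one of 1.29 ± 0.34 (edgeR adjusted p = 0.00366 for both), and these kept the sign but were 0.94 and 0.85 with TMMwsp factors (adjusted p = 0.0521 and 0.0646). Hmgn2 also missed the threshold without NSC34 library 3 (edgeR adjusted p = 0.165) and H2afz without NSC34 library 2 (0.0651). Cdk4, a kinase of the G1 phase, had a difference of 1.31 ± 0.56 log2 units that missed the threshold (edgeR, adjusted p = 0.0827). With TMMwsp factors 1 member was called higher in NSC34 and 2 higher in C2C12.

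Of the acetylcholine receptor and agrin-LRP4-MuSK genes, 11 of 12 are in the tables and 10 had reads in C2C12. The list took 0.175% of C2C12 reads (0.163% to 0.199% by library) and 0.0252% of NSC34 reads. The receptor's ligand-binding subunit Chrna1 (chr2:73563215-73580338) had 657, 708 and 774 CPM in C2C12. In NSC34 it had 3 reads, 1 in each of libraries 2, 3 and 5, and no NSC34 library reached the lowest C2C12 library. The NSC34 to C2C12 ratio was 0.263 (exact 95% interval 0.0542 to 0.771), and edgeR gave a log2 fold change of -1.91 ± 0.51 with an adjusted p of 0.012, past the threshold in 19 of 21 alternatives but not with limma-voom (adjusted p = 0.0741) or with no minimum (edgeR, 0.0829).

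Lrp4, the agrin receptor (chr2:91457511-91513779), had 400, 604 and 657 CPM in C2C12 and 0 NSC34 reads. Its pooled share was at least 2.75-fold higher in C2C12 (edgeR adjusted p = 0.00318). The libraries of the lines did not overlap, but 0 reads in a single NSC34 library allow 649 CPM or more. The lack of overlap therefore shows no difference, and only the pooled reads do. The other receptor subunits were read at lower shares: Chrnb1 (beta) at a pooled 53.4 CPM, Chrnd (delta) at 72.1 CPM and Chrng (the fetal gamma subunit) at 120 CPM in C2C12. The kinase Musk had 49.4 CPM, its adaptor Dok7 128 CPM and the clustering protein Rapsn 86.8 CPM. All of these were at 0 in NSC34 control libraries, and a count of 0 there allows up to 189 CPM, so no difference is shown.

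Pooling all 12 NSC34 libraries of the study, co-culture included, gives 70865 reads and a limit of 42.3 CPM. Chrnb1, Chrnd, Chrng, Musk, Dok7, Rapsn and Lrp4 stayed at 0 there, and each exceeded that limit in the C2C12 controls. Chrna1 differed from them, with 17 reads in the co-cultured NSC34 libraries. Agrn, the nerve-derived ligand, had 1 C2C12 read and 0 NSC34 reads, Colq, the collagen tail of acetylcholinesterase, had 1 and 0, and Ache, the enzyme itself, had 0 and 1. Apoe, the lipoprotein ligand in the study's title, had 6.51, 13.3 and 33.0 CPM in C2C12 (23 reads) and 0 NSC34 reads, a difference that was not detectable at this depth.

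The neuronal side was read from few reads. The pan-neuronal and presynaptic list (49 genes) took 0.555% of NSC34 reads (88 reads, exact 95% interval 0.445% to 0.683%) and 0.0931% of C2C12 reads. In the NSC34 libraries of over 1000 reads the share was 0.476% to 0.670%, above the C2C12 range of 0.0882% to 0.0972%. Reads fell on 22 members in NSC34 and on 33 in the deeper C2C12 data. The 3 members tested were all higher in NSC34, and the other 46 were under the minimum or not in the tables. These 3 entered the test through their NSC34 share alone, so the direction of that count was set by the minimum.

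Chgb, which encodes chromogranin B of dense-core secretory vesicles (chr2:132781278-132795079), had 0, 5, 3, 2, 6 and 0 reads in NSC34 libraries 1 to 6 and none in 1497275 C2C12 reads. Its pooled NSC34 share of 1009 CPM was at least 504-fold higher than the 3-read limit of C2C12 (edgeR adjusted p = 3.54e-09). An exact 95% counting interval, which also covers the error of the NSC34 reads, starts at 364-fold. Bex2, a brain-expressed X-linked protein, had 0, 3, 4, 3, 2 and 2 reads in NSC34 and none in C2C12, at least 441-fold higher than that limit, with an exact interval that starts at 313-fold (edgeR adjusted p = 1.37e-08). Uchl1, the abundant neuronal deubiquitinase, had 0, 3, 4, 3, 1 and 3 reads in NSC34 and 12 reads in C2C12, a ratio of 110 (interval 47.3 to 261). Each of these was read in at least 4 NSC34 libraries and in none of the 88 reads of library 1.

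The named markers of the neuronal label went in different directions. Tubb3, neuronal beta-III tubulin, had 0, 1, 2, 1, 1 and 0 reads in NSC34 and 39.9, 59.0 and 78.1 CPM in C2C12. The pooled NSC34 share of 315 CPM was 4.87 times that of C2C12 (interval 1.55 to 11.8), but the libraries overlapped and the exact permutation test of mean CPM gave p = 0.0628 (adjusted 0.0628). Without library 1 the adjusted exact permutation p was 0.0303, and without libraries 1 and 6 it was 0.00952. Stmn2, the neuronal growth-associated stathmin, went against the label: it had 52.1, 125 and 165 CPM in C2C12 (176 reads) and 0 reads in NSC34. The exact permutation test of its mean CPM gave p = 0.00216 (adjusted 0.00289), but the C2C12 share lay under the 189 CPM limit of the NSC34 control libraries, so a difference was not detectable at this depth. Stmn2 was also at 0 in the 55007 reads of the co-cultured NSC34 libraries, and the limit of 42.3 CPM over all NSC34 reads is below the C2C12 share.

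Other neuronal members were named after their values were seen. Prph, the intermediate filament peripherin, had 6 NSC34 reads, Stmn3, another stathmin, 5 and Bex1 4, each with 0 in C2C12. Tubb2b, a tubulin of developing neurons, had 199, 304 and 384 CPM in C2C12 and 0 NSC34 reads, at least 1.53-fold higher in C2C12. Vamp2, the vesicle SNARE, had 100 C2C12 reads and 0 NSC34 reads, and Nefl, the light neurofilament, 10 and 0, shares in C2C12 that lie under the 189 CPM limit, so neither shows a direction. Dpysl3, a growth-cone protein, had 147 C2C12 reads and 2 NSC34 reads, a NSC34 to C2C12 ratio of 1.28 (interval 0.154 to 4.72).

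Motor neuron identity genes were near the limit of detection. The motor neuron and cholinergic list (15 genes) took 0.0252% of NSC34 reads, which is 4 reads. Isl1, a LIM homeobox factor of motor neurons, had 1 NSC34 read and none in C2C12. Chat, the enzyme that makes acetylcholine, had no read in either line. Foxp1 (50 reads) and Hoxc8 (25 reads), factors used to tell motor neuron columns apart, had reads in C2C12 and none in NSC34. Their pooled C2C12 shares of 33.4 and 16.7 CPM lie under the 189 CPM limit, so neither shows a direction. The list of sympathoadrenal and neuroblastoma genes took 0.0631% of NSC34 reads (10 reads on 7 of 14 members; 0.0340% without NSC34 library 2) and 0.00374% of C2C12 reads. Its members with the most reads over both lines were Ddc, an enzyme of catecholamine synthesis (23 C2C12 reads, 1 NSC34 read), Gata3 (8 and 1) and Ret (5 and 2).

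Markers of other cell types were at or near 0. The glial and Schwann cell list, the macrophage and immune list and the endothelial and epithelial list had 0 NSC34 reads, which allows up to 189 CPM each. In C2C12 they had 211, 3 and 8 reads. Of the glial reads, 177 were of Pmp22, which is also made outside Schwann cells, at 104, 116 and 123 CPM, followed by Cnp (13 reads) and Slc1a3 (12 reads). The immune reads were 2 of Cd68 and 1 of Cd14.

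**Figure D3:**
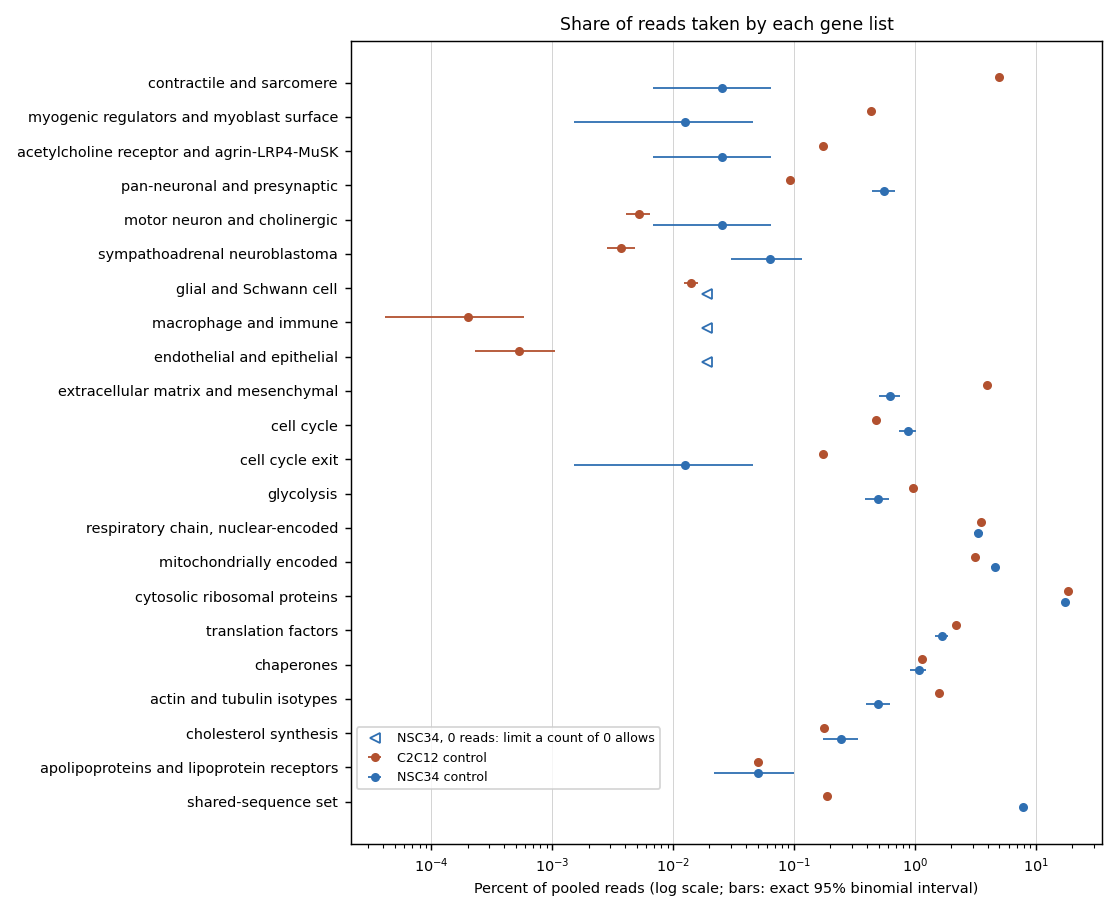
Share of the pooled control reads of each line taken by each gene list, in percent on a log scale, with exact 95% binomial intervals; open triangles mark lists with 0 NSC34 reads at the limit that a count of 0 allows. Muscle, receptor and matrix lists lie to the right in C2C12, and the pan-neuronal list (0.555% against 0.0931%) and the shared-sequence set (7.84% against 0.188%) lie to the right in NSC34. The shared-sequence set was built around the gene with the most NSC34 reads.

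Extracellular matrix and mesenchymal genes also took a larger share of C2C12 reads. The list (45 genes) took 3.96% of C2C12 reads (3.80% to 4.11% by library) and 0.618% of NSC34 reads (exact 95% interval 0.502% to 0.753%). Of the 14 members tested, 13 were higher in C2C12 and none in NSC34. In NSC34, 35 of the 45 had 0 reads. Over all 14093 genes with reads in the control libraries, however, only 3863 had any in NSC34, so this count of 0s reflects depth and shows no difference. Lgals1, the secreted lectin galectin-1, had 10972, 11376 and 12406 CPM in C2C12 and 0, 1237 and 2433 CPM in NSC34. edgeR put the difference at -2.99 ± 0.21 log2 units (adjusted p = 3.64e-11), and the lines did not overlap.

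Sparc, a collagen-binding matrix glycoprotein, had 2248, 2679 and 3077 CPM in C2C12 and 1 NSC34 read (ratio 0.0223, interval 0.000564 to 0.124). Acta2, smooth muscle alpha-actin, and Col6a3, a chain of collagen VI, had 0 NSC34 reads and were at least 9.56-fold and 8.54-fold higher in C2C12. Vim, the mesenchymal intermediate filament, had 850, 930 and 1178 CPM in C2C12 and 1 NSC34 read (ratio 0.0597, interval 0.00151 to 0.333). Outside the lists, Tmsb4x, the actin-sequestering thymosin beta-4 (chrX:167207093-167209315), had 3977, 4444 and 4642 CPM in C2C12 and no NSC34 read, at least 23.1-fold higher. Its relative Tmsb10 had 882.8 pooled CPM in NSC34 and 14749 in C2C12 (log2 fold change -4.11 ± 0.30, edgeR adjusted p = 7.32e-11). Tmsb10 shares 99.1% of 466 bases with the pseudogene Gm9844, and their summed share was 17463 CPM in C2C12 and 1324 CPM in NSC34.

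Other genes among the 15 with the smallest p in C2C12 were the growth-associated Tpt1, the ferritin heavy chain Fth1 and the non-muscle myosin light chain Myl12a. Tpt1 had 7929, 8500 and 8711 CPM in C2C12 and 0, 1613 and 3680 CPM in NSC34 (log2 fold change -1.98 ± 0.21, edgeR adjusted p = 5.44e-08). Fth1 differed by -1.72 ± 0.20 log2 units (edgeR, adjusted p = 2.3e-07). Myl12a had 2 NSC34 reads against 3131 C2C12 reads, a ratio of 0.0603 (interval 0.0073 to 0.218).

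The list of actins and tubulins (18 genes), which holds the muscle actins too, took 1.59% of C2C12 reads and 0.498% of NSC34 reads, and 5 of its 10 tested members were higher in C2C12 and none in NSC34. These were 5 actins, and with TMMwsp factors 8 members were called higher in C2C12. Actc1, cardiac alpha-actin, had 0 NSC34 reads (at least 4.77-fold higher in C2C12). Actb, cytoplasmic beta-actin, had 2278, 2804 and 3565 CPM in C2C12 and 0, 249 and 1227 CPM in NSC34 (log2 fold change -1.95 ± 0.38, edgeR adjusted p = 0.000236), and Actg1, the gamma form, a log2 fold change of -1.54 ± 0.48 (adjusted p = 0.0137; 0.0685 without NSC34 library 3 and 0.0691 without library 5). The tubulins Tuba1a, Tuba1b and Tubb5 had log2 fold changes of -0.66, -0.49 and -1.45 that missed the threshold (edgeR adjusted p = 0.0861, 0.254 and 0.0833) and passed it with TMMwsp factors; Tuba1a also passed without NSC34 library 4 (adjusted p = 0.0353) and Tubb5 without library 5 (0.0432). Actin and tubulin genes share long stretches with each other, so reads may have been split between them.

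Of the 17 chaperones tested, 3 were higher in NSC34 and 2 in C2C12, and the list took 1.15% of C2C12 reads and 1.07% of NSC34 reads. Cryab, alpha-B crystallin, had 1192, 1245 and 1308 CPM in C2C12 and Hspb1 had 723, 972 and 1074 CPM, both with 0 NSC34 reads (at least 6.59-fold and 5.21-fold higher in C2C12). The larger chaperones Hspa8 (HSC70) and Hspd1 (mitochondrial HSP60) went the other way, with log2 fold changes of 0.92 ± 0.24 and 1.39 ± 0.44 (edgeR adjusted p = 0.00654 and 0.021). With TMMwsp factors these were 0.47 and 0.95, and no chaperone was called higher in NSC34. Hspa8 also missed the threshold without NSC34 library 2 (edgeR adjusted p = 0.0595), and Hspd1 without library 3 (0.142) or 5 (0.116).

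Glycolytic genes took 0.961% of C2C12 reads and 0.492% of NSC34 reads, and of the 6 tested 2 were higher in C2C12. Gapdh had 3527, 4348 and 5098 CPM in C2C12 and 0, 990 and 2233 CPM in NSC34 (log2 fold change -1.65 ± 0.27, edgeR adjusted p = 2.59e-05). Eno3, the muscle enolase, had 410, 568 and 661 CPM in C2C12 and 0 NSC34 reads (at least 3.08-fold). Eno1, the enolase of most tissues, had a log2 fold change of -0.35 ± 0.61 and Pkm, pyruvate kinase, -0.84 ± 0.37, and neither passed (edgeR adjusted p = 0.734 and 0.104), although Pkm did with TMMwsp factors (0.00755). The muscle-specific enolase was therefore called and the ubiquitous one was not, and the difference between them was not tested.

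Nuclear-encoded subunits of the respiratory chain took 3.49% of C2C12 reads and 3.33% of NSC34 reads. Of the 40 tested, 2 were higher in NSC34 and 4 in C2C12 (1 and 12 with TMMwsp factors), with a median log2 fold change of -0.24. Cox6a2, the heart and muscle form of a cytochrome oxidase subunit, had 494, 582 and 781 CPM in C2C12 and 1 NSC34 read (ratio 0.110, interval 0.00279 to 0.616; limma-voom adjusted p = 0.102). Cox8a, a different subunit of the same complex, differed by 0.76 ± 0.21 log2 units (edgeR, adjusted p = 0.00645), a value that was 0.30 with TMMwsp factors and then missed the threshold (adjusted p = 0.351). Sdhb, the iron-sulfur subunit of succinate dehydrogenase, was higher in NSC34, with a log2 difference of 1.93 ± 0.43 (edgeR, adjusted p = 0.000999; 0.0593 without NSC34 library 5), and Atp5g3, an ATP synthase ring subunit, was lower, at -1.81 ± 0.40 (adjusted p = 0.000806).

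Transcripts of the mitochondrial genome took 3.16% of C2C12 reads and 4.60% of NSC34 reads, and their members did not move together. Of 11 tested, 4 were higher in NSC34 and 1 in C2C12 (3 and 2 with TMMwsp factors). mt-Nd2, a subunit of complex I, had 693, 757 and 811 CPM in C2C12 and 0, 2567 and 4542 CPM in NSC34 (log2 fold change 2.11 ± 0.23, edgeR adjusted p = 5.29e-08). mt-Atp8 and mt-Atp6, which overlap on the mitochondrial genome so that their reads may be split, had log2 fold changes of 1.37 ± 0.22 and 1.49 ± 0.38, the latter 0.88 and past no threshold without NSC34 library 5 (edgeR adjusted p = 0.154). mt-Co1, the catalytic subunit of cytochrome oxidase, went the other way at -1.23 ± 0.30 (edgeR adjusted p = 0.00211), with 2539 CPM in the lowest C2C12 library and 1730 CPM in the highest NSC34 library.

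**Figure D4:**
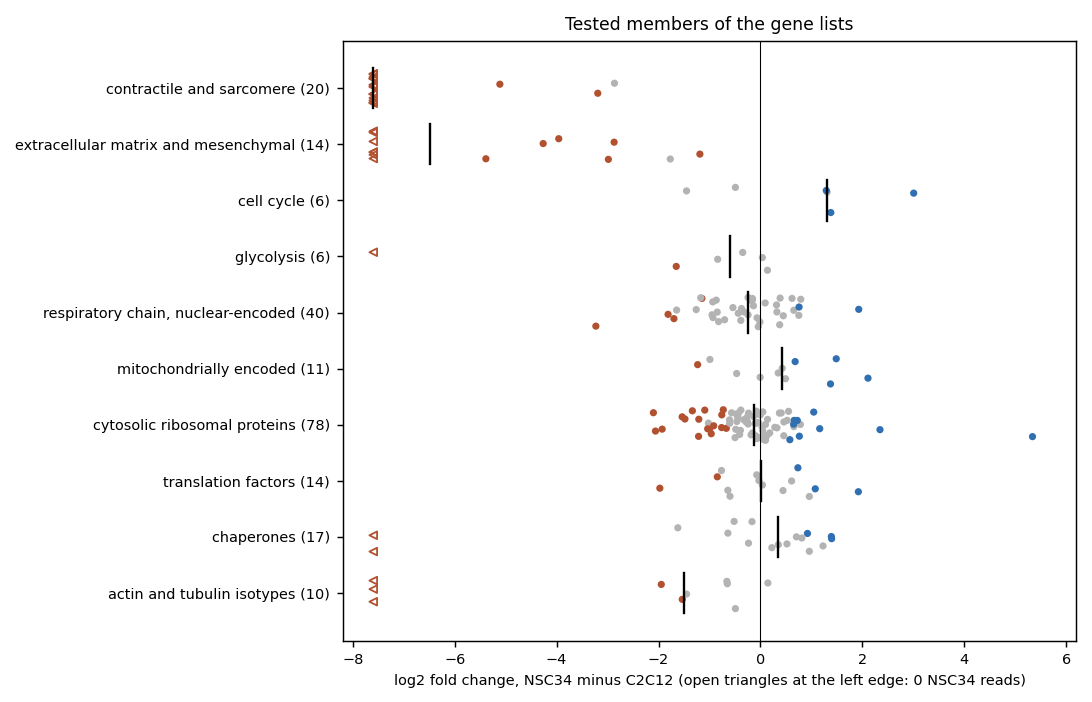
Log2 fold change (NSC34 minus C2C12, horizontal) of every tested gene in the lists with 6 or more tested members; colour marks the edgeR call (blue higher in NSC34, brown higher in C2C12, grey not past the threshold), bars mark the median, and open triangles at the left edge are genes with 0 NSC34 reads. Contractile and matrix genes lie to the left, whereas ribosomal and respiratory genes lie around 0. The left edge is a drawing position and not a measured value, and the bars are medians with 0-read genes placed there. With such genes set at their 3-read limit instead, the median was -2.95 for contractile and -2.93 for matrix genes.

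The cytosolic ribosomal proteins took 18.5% of C2C12 reads and 17.3% of NSC34 reads, and all 79 members were read in both lines. Of the 78 tested, 9 were higher in NSC34 and 17 in C2C12, and the median log2 fold change was -0.12, but with TMMwsp factors the counts were 3 and 35, so the split between directions depends on the scaling. Rplp2, a protein of the ribosomal stalk, was higher in NSC34 (log2 fold change 1.16 ± 0.19, 0.69 with TMMwsp factors), and the lines did not overlap. Rps26 and Rps2 had log2 fold changes of 2.35 and 5.34, but each has a near-identical copy. Summed with its copy Rps26-ps1, Rps26 had 4409 CPM in C2C12 and 6054 in NSC34, and summed with Rps2-ps10, Rps2 had 1421 CPM in C2C12 and 883 in NSC34, so the difference of Rps2 turned its direction when the copies were added.

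Translation factors took 2.17% of C2C12 reads and 1.67% of NSC34 reads, and of 14 tested 3 were higher in NSC34 and 2 in C2C12 (1 and 3 with TMMwsp factors). Npm1, a nucleolar chaperone of ribosome assembly, was higher in NSC34 (log2 fold change 1.92 ± 0.34, edgeR adjusted p = 8.46e-05). Eef1a1, the elongation factor that brings aminoacyl-tRNA, had 0.73 ± 0.19 (0.26 with TMMwsp factors, where it missed the threshold) and Eef1b2, its exchange factor, -0.85 ± 0.21. Cholesterol synthesis took 0.176% and 0.246% of reads in C2C12 and NSC34, and its tested member Fdps did not pass (log2 fold change -0.43 ± 0.66, edgeR adjusted p = 0.692). The apolipoproteins and lipoprotein receptors took 0.050% and 0.0504%, with no member tested. Lrp1, an endocytic receptor, had 230 C2C12 reads and 0 NSC34 reads, and the lipase Lpl had 92 and 0. Their pooled C2C12 shares of 154 and 61.4 CPM lie under the 189 CPM limit of NSC34, so no difference is shown.

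The genes with the smallest p on the NSC34 side were dominated by transcripts that share sequence. The 9 genes Noct, Sirt5, Wdr31, Sgip1, Kif24, Slc38a6, Gm48368, Gm11127 and D10Wsu102e have most-read transcripts that each align to that of Noct over at least 250 bases at 80% identity or more, on either strand. Noct was the starting gene because it had the most reads in the NSC34 control libraries. The set was thus picked from the values given here, and its share and lack of overlap are descriptions without support of their own. Together they took 7.84% of NSC34 reads (4.55% to 9.49% by library) and 0.188% of C2C12 reads (0.120% to 0.220%), and the lines did not overlap. Noct (chr3:51224447-51251644) had 449, 602 and 732 CPM in C2C12 and 3, 94, 125, 34, 162 and 14 reads in the NSC34 libraries, a ratio of 43.5 (interval 38.8 to 48.8). Wdr31 (chr4:62448653-62470896) had a ratio of 95.4 (interval 81.1 to 112) and Sirt5 (chr13:43365496-43395203) one of 73.1 (interval 61.8 to 86.5).

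The transcripts of Sirt5 and Wdr31 matched at 98.3% over 589 bases, and those of Noct and D10Wsu102e at 95.5% over 3497 bases on opposite strands. Reads in such stretches cannot be assigned to a gene from these tables, so the measurement is the summed share of the set, and the values of its single genes hold only for reads as the authors' tables assign them. In the co-cultured libraries the set took 7.93% of NSC34 reads. More broadly, 44 of the 94 genes called higher in NSC34 (46.8%) shared at least 100 bases with another tested gene, against 29 of 121 called higher in C2C12 (24%) and 139 of 604 tested (23.0%); the part of this sharing in the calls was not tested. Apobec3 and Cep85, with log2 fold changes of 7.06 and 6.40, share 547 bases at 93.1% and had a summed 45.4 CPM in C2C12 and 5360 CPM in NSC34. Gm6641, at 8.76, shares 864 bases at 96.1% with Hnrnpa3, and the pair's sum was 535 CPM in C2C12 and 1450 CPM in NSC34.

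Brd8, a bromodomain protein of a histone acetyltransferase complex, had 196, 234 and 286 CPM in C2C12 and 0, 4927 and 5360 CPM in NSC34 (log2 fold change 4.39 ± 0.22, edgeR adjusted p = 3.34e-14). Spata7, a protein of the photoreceptor cilium, had 17 C2C12 reads and 18 NSC34 reads (log2 fold change 6.51 ± 0.66). Both share at least 100 bases with another tested gene. Lrrc17, a secreted leucine-rich repeat protein (chr5:21543559-21575904), shares none. It had 3457, 4596 and 6403 CPM in C2C12 and 9299, 23569 and 68182 CPM in NSC34, with 6 reads in library 1, and the lines did not overlap (log2 fold change 2.10 ± 0.22, edgeR adjusted p = 2.26e-08, 1.53 with TMMwsp factors).

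The 12 co-cultured libraries, which share no library with the controls, gave the line difference again under the same test. Of the 215 called genes, 213 had the same sign there, and 190 were called with that sign. In co-culture 329 genes (54.5% of those tested) were called. The same-sign count over all 604 tested genes is not reported, so 213 has no baseline here. Of the genes called higher in C2C12, 38 had 0 NSC34 control reads. The co-cultured libraries were deposited with the controls of their line, and depth again differed (1812360 C2C12 and 55007 NSC34 reads). Handling or depth that went with a line can therefore repeat there, and its part in this agreement was not tested. edgeR found 0 genes whose line difference differed between co-culture and control at an adjusted p under 0.05, with 50 of 604 at an unadjusted p under 0.05. With 15858 NSC34 control reads this test can miss differences, so it does not show that the line difference was the same in co-culture.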

How the data were processed

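RNA of 12 control libraries of the C2C12 and NSC34 lines (6 each) was analysed, with 12 co-cultured libraries for separate values. The authors deposited raw counts, whole-number reads per Ensembl transcript for each Nanopore MinION library, 1 table per line. The genome build was GRCm38 per the submitters' processing notes, whereas aligner, counter and annotation release were not given in the sources used here. Transcripts were matched to GENCODE mouse release 21 (37415 of 37677 in the C2C12 table and 10374 of 10427 in the NSC34 table, 0.224% and 0.238% of reads unmatched and left out) and summed per gene symbol. A transcript listed in 1 table was taken as 0 in the other. Long reads without molecular identifiers were counted as deposited, and strand use is not stated, so antisense and overlapping genes cannot be told apart.

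Genes were tested with edgeR 4.0.16 (R 4.3.3; glmQLFit, glmQLFTest) on counts with library totals as the scale, at a Benjamini-Hochberg adjusted p under 0.05. DESeq2 1.42.0 and limma 3.58.1 (voom) were alternatives, as were TMMwsp factors, other minimum counts, left-out libraries and a replicate block. CPM scale reads to a common total, per library or over a line's pooled reads. Ratios have exact conditional binomial 95% intervals, and shares exact Clopper-Pearson ones. Values of a gene at 0 in a line were bounded with 3 counts over the line. Marker means were compared with SciPy 1.17.1, and expected genes were computed by drawing without replacement, analytically. Shared sequence was found with BLAST+ 2.17.0 between the most-read transcripts of tested genes. Promoters are from RefSeq (GRCm38.p6).

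The members and gene lists were chosen with earlier results of these data known. Genes named are the 4 markers, the receptor list and Apoe, the 15 smallest p in each direction, up to 4 smallest p of each other list, and up to 3 most-read members of a list with none tested. Genes outside this rule (Myod1, Isl1, Chat, Ccnd3, Prph, Stmn3, Bex1, Tubb2b, Vamp2, Nefl, Dpysl3, Vim, Actg1, Tuba1a, Tuba1b, Tubb5, Tnnt1, Myh3, D10Wsu102e and Slc38a6) were named after their values were seen. A few genes that the rule names are not reported here. No 2 libraries were alike: over 15 C2C12 pairs and 10 NSC34 pairs with enough reads, chi-square per degree of freedom was at least 1.31 and 1.73. On simulated data with known folds between these libraries (604 genes tested), the edgeR step called 33 of 33 genes at 16-fold higher and 30 of 32 at 4-fold higher in NSC34, 17 of 29 at 2-fold higher, and 9 of 406 unchanged genes. Folds higher in C2C12 were simulated too but are not reported here, so these detection rates hold for the NSC34 direction only.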

Additional observations from a re-analysis of the deposited data

Results flagged for a closer look

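In 50 groups of shares, marker levels and depths, 5 held a library far from the others, where chance gives about 1 in 20. The pan-neuronal share was 0% in the NSC34 library of 88 reads, against a median of 0.557%. The translation factor share was 3.41% in that same library, from 3 reads, against a median of 1.69%. The cell cycle exit share in NSC34 was 0.0433% in 1 library (2 reads) and 0 in the others. The macrophage and immune share in C2C12 was 0.000938% in its highest library, 2 reads, against a median of 0. C2C12 library 2 held 658075 reads, against a median of 183415.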

How the results depend on the processing

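The number of called genes was 215, and it lay between 145 and 290 over all alternatives. Its direction split moved more. Genes higher in NSC34 numbered 58 with TMMwsp factors, 147 with limma-voom, 56 with edgeR's filterByExpr, 185 with no minimum and 62 with a minimum of 500 CPM, against 94; genes higher in C2C12 numbered 187 with TMMwsp factors, against 121. Leaving out each library in turn gave 171 to 220 calls (77 to 98 higher in NSC34 and 94 to 123 higher in C2C12), the fewest without NSC34 library 2. Leaving out the 9 genes of the shared-sequence set, an alternative chosen after seeing the data, gave 219 calls, 110 of them higher in NSC34.

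With the replicate number as a block, 202 genes were called (90 higher in NSC34, 112 in C2C12), 197 of them among the 215. Deviations of same-numbered libraries of the lines had correlations of -0.0076 to 0.096. These exceeded the highest correlation with other numbers for replicate 2 (0.059 against 0.025) and replicate 3 (0.096 against 0.084) only. At the NSC34 depth, counting error can hide such a correlation, so the check does not settle whether the numbers pair the libraries. Directions turned for Eno1 without NSC34 library 2 (log2 fold change 0.076; -1.15 to 0.076 over left-out libraries) and for Fdps with limma-voom (0.24) and without NSC34 library 5 (0.062; -1.0 to 0.062), neither of which was called. The Tubb3 difference in mean CPM, 176, became 223 without NSC34 library 1 and 293 without libraries 1 and 6, and then passed the exact permutation threshold.

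With the 10 most counted genes of each line left out of the total, C2C12 shares rose to 5.59% (contractile), 0.487% (myogenic regulators), 0.196% (receptor list), 0.104% (pan-neuronal), 0.0158% (glial), 4.43% (matrix), 0.530% (cell cycle), 1.07% (glycolysis), 3.90% (nuclear respiratory), 3.54% (mitochondrial), 20.7% (ribosomal), 2.43% (translation), 1.29% (chaperones), 1.78% (actins and tubulins) and 0.196% (cholesterol), and the NSC34 chaperone share to 1.27%. At 500 reads the expected genes were 355 in C2C12 and 346 in NSC34. Depth limits the NSC34 side: a gene under 189 pooled CPM may show no read.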
